A study of Arabidopsis thaliana with 58 samples.

Results

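The D-type cyclin genes of Arabidopsis thaliana were followed through chromatin and RNA data from whole seedlings. The set has 9 members of 33331 nuclear genes: CYCD1;1 (AT1G70210), CYCD2;1 (AT2G22490), CYCD3;1 (AT4G34160), CYCD3;2 (AT5G67260), CYCD3;3 (AT3G50070), CYCD4;1 (AT5G65420), CYCD4;2 (AT5G10440), CYCD5;1 (AT4G37630) and CYCD6;1 (AT4G03270). They were taken by gene identifier, and the family was selected on its measured values in these libraries: PKL peaks in 4 lines, H3K4 marks in WT and pkl, and RNA in pkl. Those values are therefore given as a description, and no test of a member is reported. CYCD3 has 3 genes in the set and CYCD4 has 2, while the subgroups CYCD1, CYCD2, CYCD5 and CYCD6 have 1 gene each and are also called by the name of the subgroup below. CYCD7;1 (AT5G02110), the remaining D-type cyclin of the species, is outside the set and is given beside it.

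D-type cyclins are the plant cyclins that bind the kinase CDKA;1 at the entry into the cell cycle. The complex phosphorylates the retinoblastoma protein RBR1, which releases E2F factors and lets genes of DNA replication be transcribed. The family links division to sugar and hormone supply: CYCD3 genes respond to cytokinin and keep leaf cells dividing, CYCD6;1 acts in an asymmetric division of the root under SHR and SCR, and CYCD4 genes act in divisions of the stomatal lineage and the root pericycle. PKL is a CHD3-type chromatin remodeler. Histone H3 can be methylated at lysine 4 (H3K4), and the trimethyl form is a mark of transcribed chromatin close to gene starts.

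All seedlings were 9 days old and came from continuous white light, and every group has 3 libraries that the submitters call biological replicates. WT is the Col-0 ecotype. The pkl line is a mutant of PKL, and its allele is not named in the labels. The jaw-5D line has lower transcripts of a group of TCP factors through the microRNA miR319, the hy5 mutant lacks HY5, a factor of light signalling, and the pifQ mutant lacks the phytochrome-interacting factors PIF1, PIF3, PIF4 and PIF5. The 3 methyl forms of H3K4 were mapped in WT and pkl, PKL itself with an antibody to the endogenous protein in WT, hy5, pifQ and jaw-5D, and RNA in pkl. The tissue is a mixture, so fewer cells of a type and less RNA or mark per cell cannot be told apart.

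Depth differed little in RNA, with 17300314 to 17656899 summed gene counts per library, and is unknown for the ChIP lists, which hold no read totals. The PKL lists of jaw-5D, pifQ and hy5 had 11379 to 13979 nuclear peaks, while those of WT had 821, 632 and 2824, the most in WT replicate 3. The WT lists also end at a −log10 q of about 2, where the other PKL lists end at about 1.3, and they name chromosomes in another way. List format and genotype therefore cannot be told apart in any PKL comparison with WT, and the 3 such comparisons share the same WT libraries. Markers of green tissue and of root were both present in the RNA of pkl: RBCS1A had 24410 ± 831 FPKM (SD, n = 3) and PYK10, an abundant root protein, 2064 ± 196. The root factors SCR, SHR and RHD6 were at 25.1, 7.65 and 2.14 FPKM, and the division markers CYCB1;1, CDKB2;1 and KNOLLE (SYP111) at 4.94, 17.5 and 30.2. PKL transcripts were present in all 3 pkl libraries at 29.6, 31.9 and 33.9 FPKM, so RNA level does not check this mutant label.

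A value below is the number of bp that lie under called peaks, in the gene for histone marks and in the gene plus 1000 bp upstream for PKL. It measures the length called as enriched, not the strength of the signal. Positions are TAIR10, and distances are counted from the gene start along its strand, with negative values upstream.

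PKL peaks split the family in a plain way. In jaw-5D, pifQ and hy5, the CYCD1 gene and all 3 CYCD3 genes had PKL peaks in 9 of 9 libraries, the CYCD5 gene in 5 and the CYCD2 gene in 2, while both CYCD4 genes and the CYCD6 gene had none in any. Peaks in 9 of 9 libraries were thus seen for 44.4% of the members, against 17.9% of 67 other cell-cycle genes and 16.7% of all nuclear genes. Peaks in 0 of 9 were seen for 33.3% of the members, 40.3% of the other cell-cycle genes and 53.1% of nuclear genes. CYCD7;1 also had no PKL peak in any of the 12 libraries. In WT no member had peaks in all 3 libraries. Only the CYCD1 gene, CYCD3;2 and CYCD3;3 had one at all, as did 7.2% of nuclear genes.

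**Figure D1:**
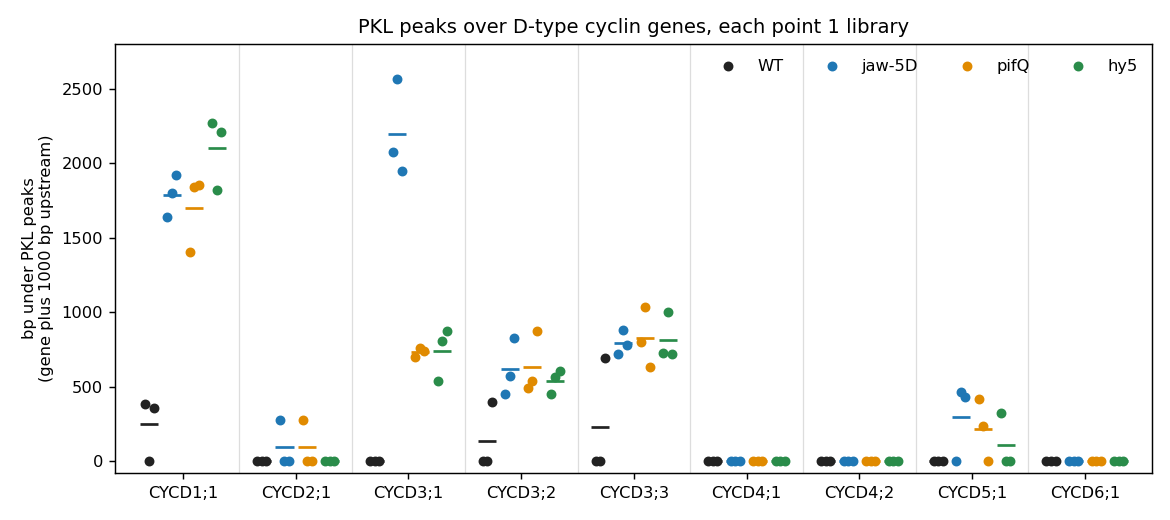
Length under PKL peaks (bp, gene plus 1000 bp upstream) for the 9 D-type cyclin genes, each point 1 library and each short line the mean of 3, in WT, jaw-5D, pifQ and hy5. CYCD3;1 reaches 1945 to 2563 bp in jaw-5D and 538 to 876 bp in pifQ and hy5, while both CYCD4 genes and the CYCD6 gene lie at 0 in all 12 libraries.

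CYCD3;1, a cytokinin-induced cyclin whose level limits the entry of cells into division, lies at chr4:16357639-16359555 on the plus strand. It was at 0 bp in all 3 WT libraries. The jaw-5D libraries had 2075, 2563 and 1945 bp under PKL peaks, those of pifQ 701, 760 and 741, and those of hy5 538, 806 and 876. All 3 jaw-5D values lay above all 6 values of pifQ and hy5, an ordering shown by 4.36% of the 11782 genes tested for PKL. No other member showed it. This ordering was picked out after the values had been seen.

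Most of the length in jaw-5D came from 1 very long peak per library over the gene start. Peaks that begin upstream of the gene gave 1481, 1757 and 1365 bp of the counted window in the jaw-5D libraries, 348, 335 and 346 in those of pifQ, and 311, 685 and 822 in those of hy5. Peaks that begin inside the gene added 594, 806 and 580 bp in the jaw-5D libraries, again more than in pifQ (353, 425 and 395) or hy5 (227, 121 and 54). The long peak ran from −3183 to 480 in replicate 1, from −3151 to 756 in replicate 2 and from −3263 to 364 in replicate 3. The summits of these 3 peaks lay at −2134, −247 and −253 in turn, so that of replicate 1 was far from the start. With 3664, 3908 and 3628 bp, these peaks were longer than at least 99.8% of the peaks in their lists. They cover the neighbouring gene AT4G34150, which lies on the same strand and ends 346 bp upstream of the start. AT4G34150 with its own 1000 bp upstream had 2838, 2806 and 2918 bp in the jaw-5D libraries, 417, 671 and 1529 in those of pifQ, and 1285, 1188 and 1781 in those of hy5. In pifQ the peak at the start was 335 to 348 bp long, with summits at −289 to −102. In hy5 it was 311, 685 and 739 bp long in the 3 libraries, again close to the start.

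A further peak lay over the 3′ end of CYCD3;1 in all 9 libraries of the 3 lines. Its summits fell between 2066 and 2203 bp from the start, past the gene end at 1917 bp, and its fold enrichment was 2.27 to 3.92. The downstream gene AT4G34170 begins 8532 bp beyond the gene. The summits of the 3′ peak thus lay within 137 bp of each other, while its 5′ edge ran from 1111 to 1863 bp.

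CYCD1;1, which acts early at the re-entry into the cell cycle and in germinating seeds, had the longest PKL coverage in pifQ and hy5 (chr1:26439864-26442829, plus strand). The WT libraries had 381, 0 and 355 bp, those of jaw-5D 1636, 1800 and 1922, those of pifQ 1400, 1840 and 1854, and those of hy5 2270, 1820 and 2209. Every value of the 3 lines lay far above the WT values, and the lines overlapped each other. The coverage was made of separate peaks: 1 over the end of the gene with summits at 2450 to 2804, 1 or 2 upstream, and 1 within the first 1000 bp of the gene. In jaw-5D replicate 3 the last of these was joined to the upstream peak. WT replicates 1 and 3 had the 3′ peak too, with summits at 2614 and 2512 and fold enrichments of 5.02 and 5.12. The small gene AT1G70209 on the opposite strand lies 68 bp upstream of the start, so upstream peaks lie over it as well.

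The remaining CYCD3 genes, which act with CYCD3;1 in leaf growth, carried a compact peak upstream of the start. CYCD3;3 (chr3:18565134-18566780, minus strand) had 0, 0 and 692 bp in WT. The jaw-5D libraries had 717, 878 and 779 bp, those of pifQ 800, 1037 and 633, and those of hy5 726, 998 and 718. The lines overlapped each other, and pifQ also overlapped WT replicate 3. Its 10 peaks were single, and their summits fell within 48 bp of each other, from −463 to −415. Fold enrichment was 4.44 to 6.8, and in jaw-5D replicate 1 the peak ranked above 99.0% of its list by q. In each of these 10 libraries it had the highest fold enrichment of any PKL peak over the members.

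CYCD3;2 (chr5:26836148-26837811, plus strand) had 0, 0 and 398 bp in WT. Its values were 450, 574 and 826 bp in the jaw-5D libraries, 488, 534 and 874 in those of pifQ, and 450, 562 and 601 in those of hy5. All 9 values of the 3 lines were above those of WT, by 52 bp or more over WT replicate 3. The 10 peaks had summits from −297 to −167 and fold enrichments of 2.72 to 4.72. For both genes the WT peak came from the library with the most peaks in that group, and its summit, at −455 and −282 in turn, lay inside the range of the other lines.

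**Figure D2:**
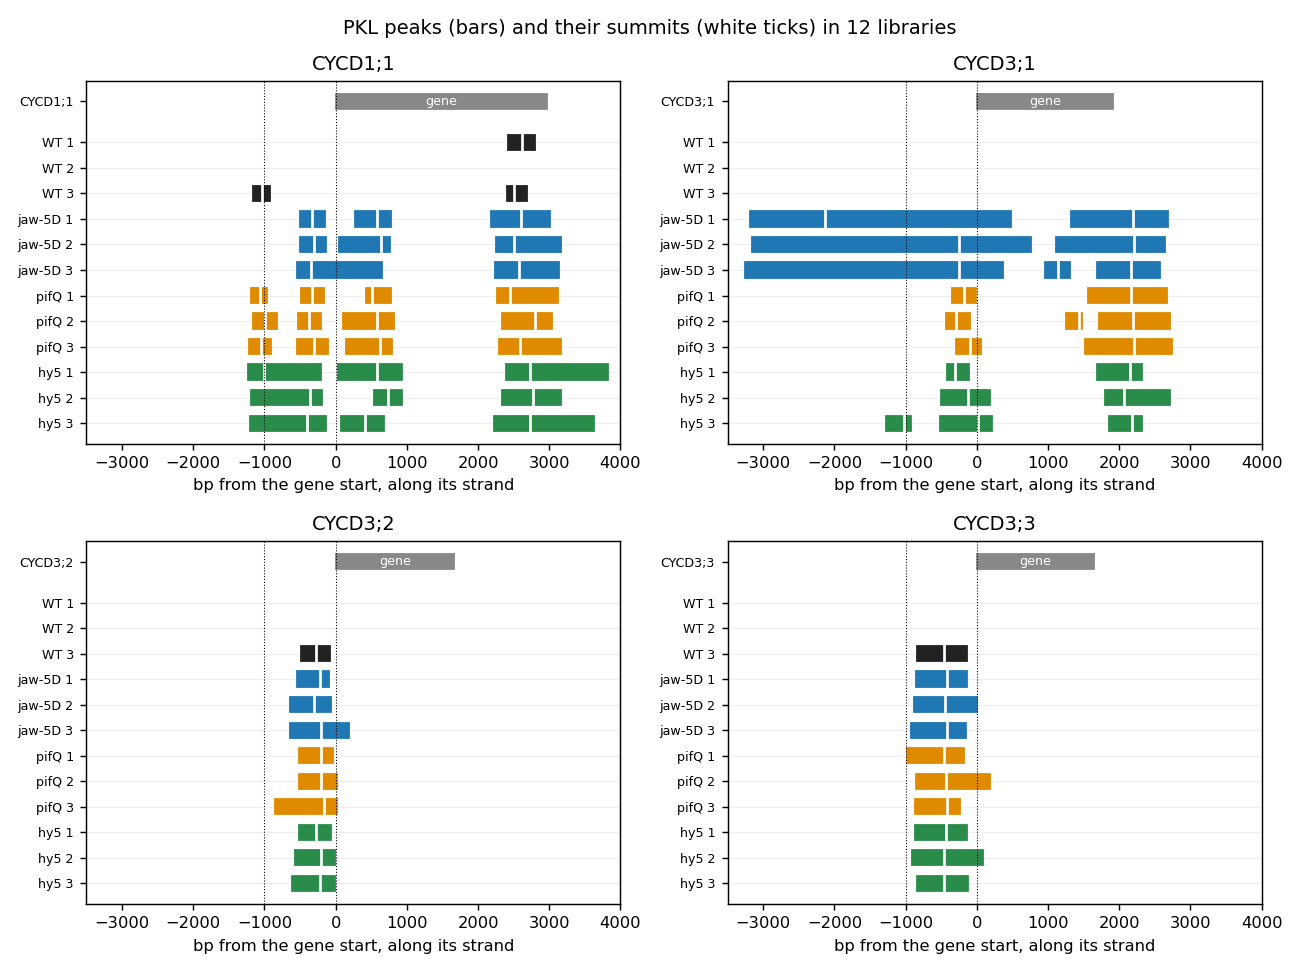
PKL peaks (bars) and summits (white ticks) along CYCD1;1 and the 3 CYCD3 genes in 12 libraries, in bp from the gene start along its strand, with the gene as a grey bar and dotted lines at the start and 1000 bp upstream. In jaw-5D 1 peak of 3628 to 3908 bp spans the start of CYCD3;1, while the peaks of CYCD3;3 share summits between −463 and −415 bp.

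The CYCD5 and CYCD2 genes had peaks in part of the libraries. The former, linked to natural variation in endoreduplication of leaves (chr4:17679279-17681202, plus strand), had 0 bp in WT, and 0, 466 and 428 bp in the jaw-5D libraries, 414, 236 and 0 in those of pifQ and 325, 0 and 0 in those of hy5. Its 5 peaks had summits from −109 to 165 and fold enrichments of 1.85 to 2.98, and ranked by q above 5.1% to 58.7% of the peaks in their lists. The latter, a sucrose-responsive cyclin (chr2:9553803-9556145, minus strand), had 276 bp in jaw-5D replicate 1 and 277 bp in pifQ replicate 1, with summits at −553 and −533, and 0 bp in the other 10 libraries. CYCD4;1 (chr5:26141470-26143993), CYCD4;2 (chr5:3280516-3282411) and the CYCD6 gene (chr4:1432375-1433691), all on the minus strand, were at 0 throughout.

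The comparison of each line with WT was fitted over 11782 genes with limma, after centring of the libraries, which removed shifts of 1.15, 1.23 and 1.11 on the log2 scale in jaw-5D, pifQ and hy5. Of the 9 members, 5 were bound in enough libraries to enter that fit, and none of them had enough WT libraries with peaks to enter it without the 3 lines. Before any centring, all 3 values lay above all 3 WT values for 4 members in jaw-5D, 3 in pifQ and 4 in hy5, an ordering shown by 65.9%, 66.6% and 58.0% of all genes tested. Nothing is read from these counts, because the members were chosen from the same contrasts.

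H3K4me3 and H3K4me2 covered the whole family in both genotypes. All 9 members carried at least 150 bp of each mark in all 3 WT and all 3 pkl libraries, against 48.2% of nuclear genes for H3K4me3 and 51.3% for H3K4me2 in WT. Among the 67 other cell-cycle genes the shares in WT were 67.2% and 97.0%. H3K4me1 was more selective: 4 members (44.4%) had it in all 3 WT libraries and 5 (55.6%) in all 3 pkl libraries, beside 36.2% and 36.9% of nuclear genes and 58.2% and 61.2% of the other cell-cycle genes. CYCD7;1 was at 0 for H3K4me1 and H3K4me3 in all 12 libraries.

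H3K4me1 summits lay farther into the genes than most H3K4me3 and H3K4me2 summits. Of 55 H3K4me3 summits over the members, 54 lay within 600 bp of the gene start, with a median of 273 bp. H3K4me2 had 47 of 62 summits in that stretch and a median of 352 bp. The 2 medians pool all members, and within every member the summit ranges of H3K4me2 and H3K4me3 overlapped. In the CYCD5 gene, for example, they were 139 to 249 bp and 217 to 315 bp in turn. None of the 35 H3K4me1 summits lay within 600 bp of the start: they fell between 887 and 1502 bp, with a median of 1177 bp. The H3K4me2 summits beyond the first 600 bp belonged mostly to the CYCD1 gene, which had 2 separate H3K4me2 peaks per library with the farthest summit at 1744 bp, and to CYCD3;1, whose single peak spanned nearly the whole gene.

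**Figure D3:**
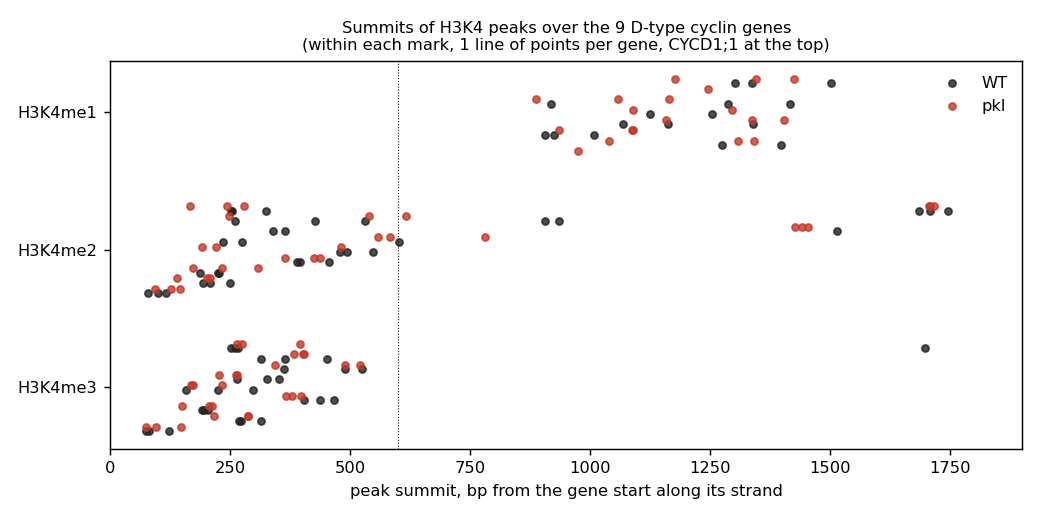
Distance of H3K4me1, H3K4me2 and H3K4me3 peak summits from the gene start (bp along the strand) for the 9 D-type cyclin genes in WT (black) and pkl (red), with a dotted line at 600 bp. Of the 55 H3K4me3 summits 54 lie left of the line, and all 35 H3K4me1 summits lie right of it.

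Both CYCD4 genes showed longer H3K4me3 peaks in pkl than in WT. CYCD4;2 had 401, 324 and 273 bp of H3K4me3 in WT and 533, 621 and 542 in pkl. CYCD4;1 had 493, 415 and 422 in WT and 730, 749 and 503 in pkl. For both genes the groups did not overlap, although pkl replicate 3 of the latter lay only 10 bp above the highest WT library. Fold enrichment at the summit, the authors' own value, was 2.50 to 3.22 in WT and 3.77 to 4.80 in pkl for the former, and 2.44 to 3.51 against 3.84 to 4.68 for the latter. Summits of the former lay between 192 and 204 bp in WT and 151 and 212 bp in pkl. PKL peaks were absent from both genes in all 12 PKL libraries.

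The CYCD5 gene had 805, 917 and 839 bp of H3K4me3 in WT and 1012, 1077 and 922 in pkl. All pkl values were higher, with a gap of 5 bp between the groups, and fold enrichment overlapped (5.03 to 8.18 in WT, 4.71 to 7.55 in pkl). Its H3K4me2 was 1500, 1499 and 1015 bp in WT and 1496, 1508 and 1473 in pkl, so only WT replicate 3 stood lower.

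The CYCD3 genes, which carried PKL peaks in jaw-5D, pifQ and hy5, had similar H3K4me3 lengths in WT and pkl. CYCD3;1 had the longest H3K4me3 of the family, with 1596, 1558 and 1528 bp in WT and 1478, 1564 and 1552 in pkl. CYCD3;2 had 873, 955 and 809 bp against 951, 905 and 892, and CYCD3;3 787, 802 and 716 against 805, 754 and 855. In all 3 genes the groups overlapped.

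The CYCD2 gene overlapped as well, with 1016, 892 and 959 bp in WT and 1055, 982 and 974 in pkl, and its H3K4me3 fold enrichment was the highest of the family in WT replicates 2 and 3 (9.26 and 8.26) and second to CYCD3;3 in replicate 1 (6.17 against 6.24). The CYCD1 gene was lower in pkl on average, at 617, 576 and 611 bp against 895, 615 and 623. Its 2 groups overlapped, and the highest WT library held a second peak in the body of the gene, with its summit at 1698 bp. The CYCD6 gene had 661, 494 and 610 bp in WT and 708, 621 and 528 in pkl, again overlapping.

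The largest H3K4me2 difference of the family was that of CYCD4;2, which had 768, 818 and 666 bp in WT and 1074, 1161 and 1096 in pkl, with fold enrichment of 2.17 to 3.40 against 2.79 to 4.06. CYCD3;3 also had no overlap, with 1065, 1038 and 1035 bp against 1177, 1088 and 1066, but the gap was 1 bp, and the fitted log2 difference was −0.08 after the centring used for this mark. CYCD4;1 had 820, 925 and 797 bp in WT and 906, 1225 and 838 in pkl, and these overlapped. The CYCD6 gene was covered over its full 1317 bp in all 6 libraries, with fold enrichments of 5.27 to 7.63 and ranks above 95.5% to 99.4% of the peaks in each list. It was the most strongly H3K4me2-marked member.

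The other H3K4me2 values overlapped between genotypes. CYCD3;1 had 1734, 1688 and 1672 bp in WT and 1676, 1662 and 1712 in pkl, nearly its full length of 1917 bp. CYCD3;2 had 1057, 1007 and 1018 against 1040, 1279 and 1034, and the CYCD1 gene 1425, 973 and 1266 against 1122, 1153 and 1292. The CYCD2 gene had 838, 676 and 725 bp in WT and 1220, 580 and 821 in pkl, the widest spread of the family for this mark.

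H3K4me1 overlapped between WT and pkl in all 9 members. The CYCD2 gene had the highest mean in both genotypes, with 926, 933 and 728 bp in WT and 999, 732 and 889 in pkl. CYCD4;2 had 749, 514 and 611 against 653, 722 and 729, CYCD4;1 745, 299 and 990 against 723, 781 and 657, and CYCD3;2 606, 642 and 738 against 667, 583 and 310. The mark came and went between replicates in CYCD3;3 (0, 373 and 377 bp in WT against 0, 501 and 287 in pkl) and in the CYCD5 gene (340, 317 and 0 against 529, 283 and 504). It was called in 1 pkl library each of CYCD3;1 (443 bp) and of the CYCD6 gene (353 bp), and in no library of the CYCD1 gene.

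**Figure D4:**
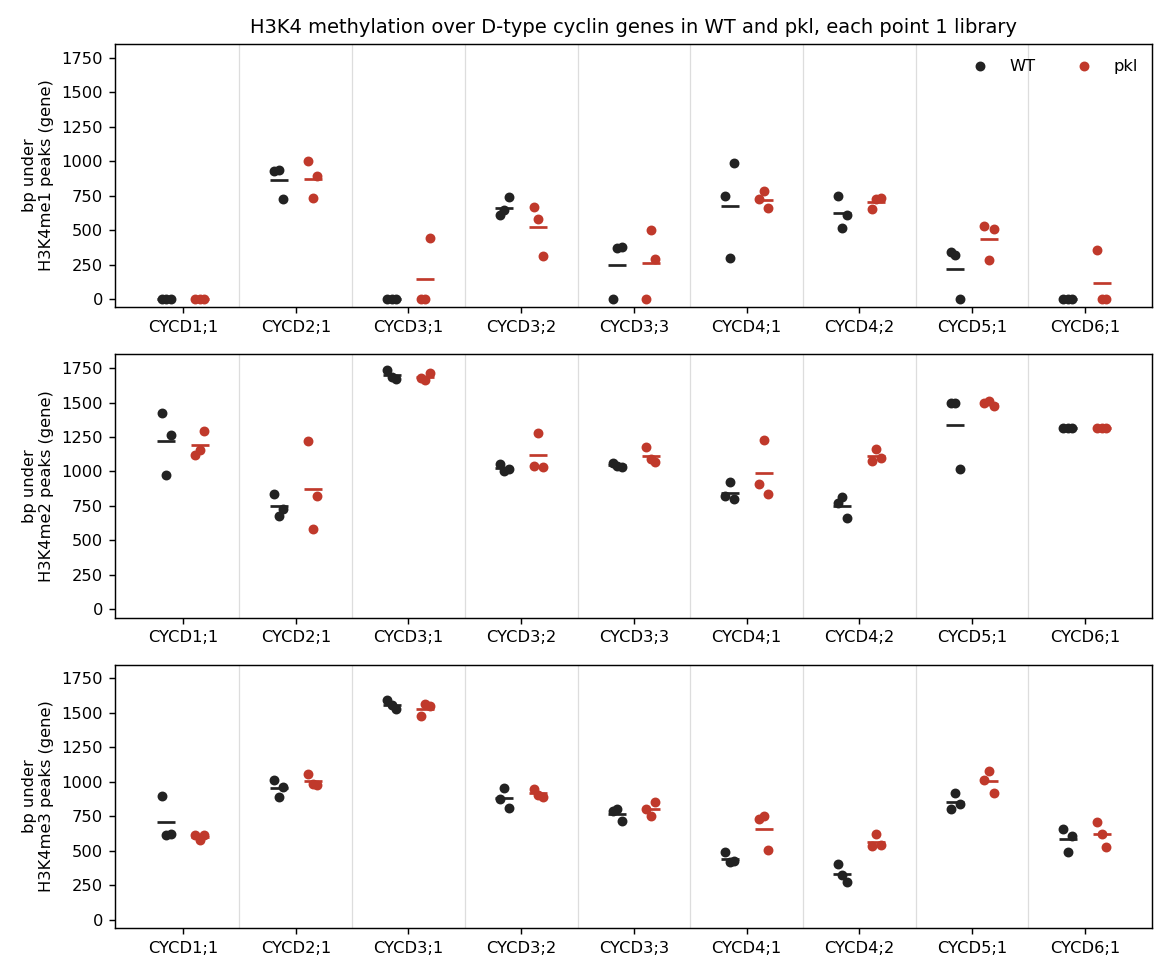
Length under H3K4me1, H3K4me2 and H3K4me3 peaks (bp within the gene) for the 9 D-type cyclin genes in WT (black) and pkl (red), each point 1 library and each short line the mean of 3. For H3K4me3 the pkl points of both CYCD4 genes and the CYCD5 gene lie above all WT points, and for H3K4me2 the CYCD6 gene is at 1317 bp in all 6 libraries.

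Before any centring, all 3 pkl values lay above all 3 WT values in 0, 2 and 3 members for H3K4me1, H3K4me2 and H3K4me3. Of all genes tested, 11.3%, 18.8% and 16.2% showed this order. The reverse order held in 0 members for each mark, and in 2.80%, 3.80% and 3.64% of all genes tested. For H3K4me2 and H3K4me3, for which all 9 members entered the fit, the median fitted log2 difference of the members was −0.06 and 0.06, beside −0.04 and 0.03 over all genes. The members were chosen with these contrasts known, so the counts describe them and no more is read from them.

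RNA of the family in pkl spanned about an order of magnitude. CYCD3;2 was highest at 28.7, 29.6 and 30.5 FPKM (mean 29.6 ± 0.902, SD, n = 3), followed by the CYCD2 gene at 23.7, 21.2 and 22.4 (22.4 ± 1.24). CYCD3;3 at 13.0, 14.3 and 13.5 and CYCD3;1 at 12.3, 14 and 13.3 overlapped each other. The CYCD1 gene followed at 7.10, 8.38 and 7.58 FPKM, and its values met neither neighbour.

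The lower part of the order held the CYCD5, CYCD6 and CYCD4 genes. The CYCD5 gene had 6.02, 5.62 and 4.66 FPKM, the CYCD6 gene 3.46, 5.26 and 5.25, and CYCD4;1 4.39, 4.40 and 4.24. The CYCD6 gene overlapped both of the others, which did not overlap each other. CYCD4;2 had the lowest mean, with 2.46, 2.29 and 3.63 FPKM (2.79 ± 0.729), on 31 to 50 counts per library. Its replicate 3 lay above replicate 1 of the CYCD6 gene. CYCD7;1 had 3 counts in 1 library and 0 in the other two. The median of the members was 7.69 FPKM, beside 3.55 over all nuclear genes, 5.24 over the A- and B-type cyclins of the cell-cycle list and 12.9 over its CDK inhibitors. The kinase partner of these cyclins, CDC2 in RefSeq, stood at 38.6 ± 1.21 FPKM and RBR1 at 18.7 ± 0.691. No RNA level of WT was used, so nothing here says how these levels differ from WT.

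**Figure D5:**
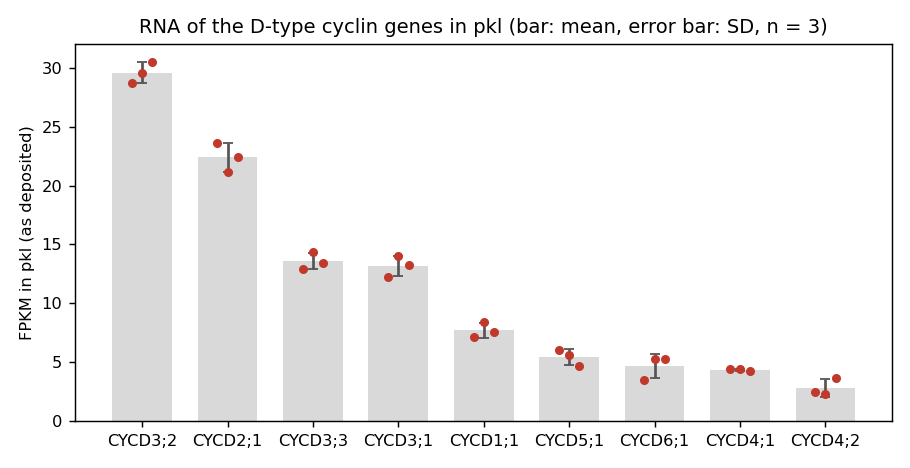
RNA level of the 9 D-type cyclin genes in pkl seedlings (FPKM as deposited), with bars for the mean, error bars for the SD and points for the 3 libraries. CYCD3;2 has the highest mean, 29.6 FPKM, and CYCD4;2 the lowest, 2.79 FPKM.

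Few of the other 67 genes of the cell-cycle list were called for H3K4 marks. For H3K4me3, limma called 2 of 56 tested genes longer in pkl and 0 shorter at an adjusted p under 0.05, which is 3.57%, beside 1.53% of the 16781 genes tested. MCM3, a subunit of the replicative helicase, was at 0 bp in all WT libraries and at 417, 350 and 326 bp in pkl (364.3 ± 47.2, SD, n = 3). CDKB1;1, a kinase of later cell-cycle phases, was at 0 bp in WT and at 372, 268 and 323 bp in pkl (321.0 ± 52.0). Both genes entered the fit only through the pkl libraries, so the filter set their direction, and no fold or p is given for them. For H3K4me1 limma called 0 of 50 tested genes and for H3K4me2 0 of 65, beside 0.697% of 13480 and 1.58% of 19091 genes. At an unadjusted p under 0.05 stood 6, 2 and 9 list genes for H3K4me1, H3K4me2 and H3K4me3 (12%, 3.08% and 16.1%), beside 7.5%, 14% and 13.4% of all genes tested.

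For PKL, limma called 10 of 26 tested cell-cycle genes longer than in WT in each of jaw-5D, pifQ and hy5, and 0 shorter. That is 38.5% in each line, close to the 36.7%, 34.7% and 34.8% called among all genes tested. No list gene had PKL peaks in all 3 WT libraries, so all 26 entered the fit with the help of the lines. The filter thus favours longer calls, and nothing is read from the 0 shorter. Of the 10, CDK inhibitors, which hold the complexes of D-type cyclins in check, made up 4, 5 and 4. The 26 tested genes held 8 of them. None of the 5 tested A- and B-type cyclins was called in any line. These counts are too small to set the groups of the list apart. With an equal number of peaks kept from every list, 0 list genes were called, but only 931 genes entered that fit in place of 11782. A list gene that did not enter could not be called, so this 0 does not show that calls were lost.

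The called genes named by the size of their difference in length were 4 CDK inhibitors and a helicase subunit. LGO, the inhibitor SMR1, was at 0 in WT, at 1120, 805 and 890 bp in the jaw-5D libraries, at 1017, 837 and 864 in those of pifQ, and at 1084, 967 and 1018 in those of hy5. KRP6 was at 0 in WT and at 1040.7 ± 112.6, 1000.3 ± 349.9 and 1171.7 ± 88.1 bp in jaw-5D, pifQ and hy5 (SD, n = 3). The helicase subunit gene PRL (MCM7) was at 0 in WT and at 1299.7 ± 57.1, 1087.3 ± 310.5 and 998.0 ± 190.3 bp in the same lines. These 3 genes entered the fit only through the lines, so no fold or p is given for them. With peaks of a −log10 q of at least 10, LGO and KRP6 lost their call in jaw-5D, pifQ and hy5. KRP6 also lost it in pifQ with the gene alone.

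AT1G08180 (SMR2) had 846.3 ± 100.9 bp in jaw-5D and 1055.0 ± 13.5 in hy5 against 129.7 ± 224.6 in WT, and limma called both differences. The jaw-5D call was lost without any 1 jaw-5D library and without WT replicate 1 or 2, and the hy5 call without WT replicate 1 or 2. ICK1 (KRP1) had 1803.0 ± 213.9 bp in pifQ against 274.3 ± 261.2 in WT and was called by limma. This call was lost without any 1 pifQ library and without WT replicate 1. Both genes, too, would not have entered the fit on their WT libraries alone, so no p is given for them.

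Over the 30 ChIP libraries, the nuclear gene whose lengths lay closest to CYCD3;2 was TSC10B, with a mean absolute difference of 0.18 in log2 of bp plus 100, where the median over genes was 1.86. For the CYCD2 gene the closest was bZIP19 (0.16, median 1.62), and for CYCD3;3 AT4G38670 (0.27, median 1.94). Each of these genes was picked as the closest of all, so nothing is read from its gap to the median. In RNA these genes stood apart from their partners, with 5.72 FPKM for TSC10B, 37.5 for bZIP19 and 9.03 for AT4G38670.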

How the data were processed

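Whole seedlings were profiled by ChIP-seq and RNA-seq. Per the submitters' processing notes, MACS2 2.2.5, Bowtie2 2.3.3, deepTools, HISAT2 2.1.0, fastp and SAMtools 1.6 were used with TAIR10, and the role of each is not given. The deposited count table gives raw counts per gene. The authors' FPKM imply library totals of 0.736 to 0.742 of the summed counts. The deposited peak lists, 1 per library, give a score, the fold enrichment (a ratio) at the summit, −log10 p and −log10 q. The score was not used, and the control behind the fold is not given in the sources used here. The RNA files hold 6 columns (3 in each) that match no sample label, and these were not used. The 10 Hi-C and 15 input samples were not analysed here.

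Gene positions came from the count table, and symbols from RefSeq (all 9 members and 67 of 67 list genes matched). Per gene and library, bp under peaks were summed. At least 150 bp (histone marks) or 50 bp (PKL) counted as marked. A gene entered the limma fit (limma 3.58.1, R 4.3.3) if 3 libraries or more marked it. The fit was on log2(bp + 100), two-sided, Benjamini-Hochberg threshold 0.05, the 12 PKL libraries together. Libraries were centred where that moved the group difference by over 0.1 (H3K4me2 and PKL). In a gene at 0 bp in 1 group, the pooled spread is applied to a group with none. The procedure was tested on simulated data. Replicates measure the spread between seedling samples. The members, the cell-cycle list and the tests were chosen with earlier results of these data known. All members are named; of the list, every gene called for a histone mark, and per PKL comparison the 4 called genes with the largest bp difference. Alternatives varied the added bp, the filters, the peak threshold, the window, the centring and the libraries. A search for sequence motifs was planned and is not analysed here.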

Additional observations from a re-analysis of the deposited data

How the results depend on the processing

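Without centring, the 3 PKL comparisons called 7993, 8089 and 7267 genes in jaw-5D, pifQ and hy5 (22, 19 and 16 of the cell-cycle list), against 4320, 4085 and 4099 (10 in each) with it. Equal numbers of peaks per list left 88, 77 and 58 genes (0, 0 and 0 of the list). Peaks with a −log10 q of at least 10 left 1593, 1371 and 1320 (3, 2 and 2). The gene without its upstream window left 1325, 1482 and 1312 (6 and 5 of the list in jaw-5D and pifQ). The number of genes tested also fell in these settings, from 11782 to 931, 4692 and 7721 in turn, so their counts are not shares of the same set. In jaw-5D, pifQ and hy5, 500 added bp gave 2788, 2865 and 2883 genes. Of these, 919, 1106 and 1174 were shorter than in WT, against 169, 179 and 231 in the main fit. A fit of the 2 groups alone called 16, 15 and 13 list genes. Leaving out 1 library gave 3303 to 4424, 3061 to 4288 and 3256 to 4387 genes, and 9 to 11, 8 to 10 and 8 to 12 list genes.

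For H3K4me1, H3K4me2 and H3K4me3, a raised minimum of marked bp gave 61, 128 and 141 genes in place of 94, 302 and 256, and 1 list gene for H3K4me3 in place of 2. Peaks with a −log10 q of at least 10 gave 332 and 482 genes for the first 2 marks and 0 list genes for H3K4me3. For the first 2 marks that threshold cut the genes tested from 13480 and 19091 to 7847 and 10844. Leaving out 1 library gave 11 to 103, 127 to 213 and 69 to 240 genes, and 0 to 1, 0 to 0 and 0 to 3 list genes. The counts fell to 11, 14 and 44 for H3K4me1 and to 69, 69 and 84 for H3K4me3 without pkl replicates 1, 2 and 3, and to 153, 192 and 127 for H3K4me2. For that mark they were 192 and 142 without WT replicates 2 and 3. For H3K4me1, 1 list gene was called without WT replicate 1. Direction turned too, from 74 longer and 20 shorter for H3K4me1 and 181 and 121 for H3K4me2. Without pkl replicates 1, 2 and 3, H3K4me1 left 0, 0 and 2 longer against 11, 14 and 42 shorter. H3K4me2 left 18, 11 and 5 against 135, 181 and 122. For H3K4me3, 191 against 65 became 18, 13 and 31 against 51, 56 and 53. Without a WT replicate, most calls were longer. A gene marked only in the group cut to 2 libraries could not enter, so nothing is read from the turn. No cause was tested.

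Same-numbered libraries did not deviate together, with correlations of −0.088 to 0.0813 between pkl or a line and WT. With the replicate number as a block, 0, 188 and 165 genes were called for the 3 marks and 4151, 3871 and 3940 in the PKL comparisons. The block gave 0, 0 and 2 list genes for the marks and 9, 9 and 10 for PKL. Among the list genes named, ICK1 in pifQ turned to −2.01 with equal numbers of peaks per list. Of 198 recomputed values of the list genes named, 25 lost their call, all for PKL, among them AT1G08180 in jaw-5D with the block (log2 1.32), with 500 added bp (0.44) and with the gene alone (0.16), and in hy5 with the gene alone (0.61). Without single libraries its log2 value in jaw-5D was 0.90 to 1.40. ICK1 in pifQ fell to 0.65 without WT replicate 1. MCM3 and CDKB1;1 could not be fitted without any 1 pkl library or with peaks of a −log10 q of 10 or more, so those settings give no value for them. Of 522 recomputed log2 differences of the members, 464 moved by less than 1 SD of their replicates and 58 by more, 17 of these without centring. Of 36 recomputed FPKM means, the 9 scaled by summed counts moved by over 1 SD, and the 27 leaving out a library did not. The ChIP lists give no depth, so whether a gene at 0 bp lacks the mark is not detectable here.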
